A study of Mus musculus with 6 samples.

Results

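Rab GTPases are small membrane-bound proteins that mark the compartments of a cell and steer vesicles between them. The Rab genes were taken as every gene of the count table whose symbol is Rab followed by a number and at most a letter and a digit, with no use of measured values. This gave 59 of 48587 genes. They were followed in microglia, the brain's own macrophages, of C57BL/6 mice at postnatal day 42. One genotype was wild type and the other lacked the transcription factor gene Lyl1 (labelled Lyl1 KO), with 3 samples each and no other agent or treatment named. Polyadenylated RNA of about 1000 sorted cells per sample was amplified and sequenced in reads of 50 bases. The labels give neither the targeted allele of Lyl1, nor the sorting gate, nor whether each sample was a separate animal, so the p-values cover the spread among these samples only, some or all of which may be technical.

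A Rab switches between a GDP-bound form, kept in the cytosol by GDP dissociation inhibitor (GDI), and a GTP-bound form on a membrane. Exchange factors load GTP, GTPase activating proteins bring about its hydrolysis, and effectors such as tethers and motor adaptors bind the GTP form. Each Rab needs an escort protein and geranylgeranyl transferase for the lipid anchor that holds it on membranes. In macrophages the family serves uptake of particles, ripening of phagosomes, lysosome fusion, cytokine release and return of receptors to the surface.

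Microglia had reads of most of the family. Of the 59 Rab genes, 31 had more than 3 reads in all 6 samples, 13 had more than 3 in some samples and 15 never did. Levels are counts per library size after scaling by TMM (TMM-scaled CPM, written CPM here). The limit of 3 reads that a count of 0 allows equals 0.104 to 0.264 CPM depending on the sample, and covers counting error only. Of the 15, 11 had 0 reads throughout, namely Rab3c, Rab9b, Rab13, Rab15, Rab17, Rab19, Rab33a, Rab36, Rab37, Rab38 and Rab44. The other 4, Rab3d, Rab7b, Rab27b and Rab39b, had at most 1 read in any sample. The filter on low counts left 39 Rab genes to be tested between genotypes. All 31 that were detected throughout passed it, and so did 8 that were at 3 reads or fewer somewhere.

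Total gene counts ran from 12753945 to 27378614 per sample, and 9265 to 12897 genes had more than 3 reads. Wild-type samples 1 and 2 had the fewest such genes, 9265 and 9360, against 12444 in wild-type sample 3. Of these, wild-type sample 1 had the lowest total count of all samples and wild-type sample 2 the highest. The microglial markers P2ry12, Tmem119 and Cx3cr1 were at 3572 CPM or more in every sample. Of the list of 8 microglial markers edgeR called 0, but 2, Aif1 and Fcrls, had an unadjusted p under 0.05, against 2.84% of all genes tested. The log2 fold changes were -0.84 for Aif1 (edgeR adjusted p = 0.9999) and -0.72 for Fcrls (edgeR adjusted p = 0.9999). Aif1 and Fcrls were lower in all 3 knockout samples than in any wild-type sample and P2ry12 was higher. Of all genes tested, 5.19% were lower and 5.97% higher in this way. The part of these markers in the Rab values was not tested. Lyl1 itself had 683, 1399 and 839 reads in the wild-type samples and 205, 237 and 410 in knockout, so every library lay on the side its label states, with reads left in knockout. Its log2 fold change of -2.14 (standard error 0.98) had adjusted p = 0.9999 in edgeR. Xist, a transcript of female cells, reached 349 CPM in knockout sample 1 and 412 CPM in knockout sample 3, against 1.41 CPM or less in the other samples. A fit that held whether Xist was above 10 CPM is given with the genotype comparison.

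Because paralogous Rabs share the code of their nucleotide-binding core, their separation by 50-base reads is shown for the copies on which the results turn. The capitals mark the 24 bases that encode the phosphate-binding loop (the Walker A motif), which grips the nucleotide, in a window of 50 coding bases, 5′ to 3′ on the coding strand, from GENCODE M21 transcripts on GRCm38. The motif was found in 57 of the 59 members, all but Rab40b and Rab40c. The windows of Rab5a (chr17:53483979-53484028, plus strand), Rab5b (chr10:128686795-128686844, minus strand) and Rab5c (chr11:100719962-100720011, minus strand) lie within 1 exon each. Those of Rab11a (chr9:64728381-64737584, minus), Rab11b (chr17:33749929-33760223, minus), Rab2a (chr4:8535887-8561179, plus) and Rab2b (chr14:52278958-52279217, minus) are joined across an intron.
Rab5a: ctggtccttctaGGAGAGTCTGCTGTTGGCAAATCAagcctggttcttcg
Rab5b: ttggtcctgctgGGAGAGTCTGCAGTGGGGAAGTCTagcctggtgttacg
Rab5c: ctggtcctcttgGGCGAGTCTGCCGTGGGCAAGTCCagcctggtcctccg
Rab11a: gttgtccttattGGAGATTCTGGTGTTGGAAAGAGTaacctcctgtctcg
Rab11b: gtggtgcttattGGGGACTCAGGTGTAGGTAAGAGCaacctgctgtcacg
Rab2a: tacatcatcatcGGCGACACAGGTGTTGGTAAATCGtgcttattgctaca
Rab2b: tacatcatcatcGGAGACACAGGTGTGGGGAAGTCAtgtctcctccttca
Rab5a differed from Rab5b at 11 of these 50 bases and from Rab5c at 10, Rab11a from Rab11b at 10 and Rab2a from Rab2b at 11. Over whole annotated transcripts, 41 of the 59 Rab genes had no stretch of 50 bases in common with a gene elsewhere in the genome, and 6 had any in common with another Rab. The share passed 10% only for Rab7, at 11.4% (mostly a Rab7 pseudogene). It was 9.8% for Rab5b and 9.49% for Rab11b, again mostly with pseudogenes, so their counts could be split by the way such reads were assigned.

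Genes were ranked by CPM per kilobase of annotated exon, which allows for length when different genes are compared. The length counts all annotated exons of a gene together, not the transcripts that microglia make, so the order depends on it. The highest over all 6 samples was Rab2a, which acts between endoplasmic reticulum (ER) and Golgi and in delivery to lysosomes, with a mean level of 109 CPM per kilobase. Rab24, linked to autophagy, followed at 79.8, then Rab11a of recycling endosomes at 75.4 and Rab1a of ER-to-Golgi transport at 74.1. Rab32 of lysosome-related organelles was at 68.8, Rab20 of phagosomes at 61.5 and Rab7 of late endosomes at 58.8. Rab1b was at 51.9, Rab31, which acts between the Golgi and endosomes, at 43.5 and Rab14, which does the same and serves recycling, at 39.3. The top of the ranking thus held Rabs of the secretory, recycling, phagosomal and lysosomal routes side by side. Neighbours in this order did not stand apart, since the samples of Rab2a alone ran from 65 to 201 and those of Rab24 from 50 to 112 CPM per kilobase. Prelid1, with 948 to 3442 reads, overlaps 62.4% of the exon length of Rab24 on the opposite strand. E230013L22Rik, with 8 to 203 reads, overlaps 25.6% of that of Rab20, also on the opposite strand. How reads in such overlaps were assigned is not given, so these Rabs could have gained or lost reads. The kit does not mark strand, so such reads cannot be told apart.

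By reads, not by level per length, Rab14 led in 5 of 6 samples, with annotated exons of 13589 bases. It had 9436, 7318 and 11627 reads in the wild-type samples and 12438, 10195 and 13180 in knockout. That is 559 ± 271 CPM in the wild-type samples and 508 ± 45.5 CPM in knockout (SD, n = 3 each), with overlapping genotypes. Rab1a led in wild-type sample 2, with 452 CPM. The 5 Rabs with the most reads made up 40.1% to 49.1% of the Rab reads of a sample.

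**Figure D1:**
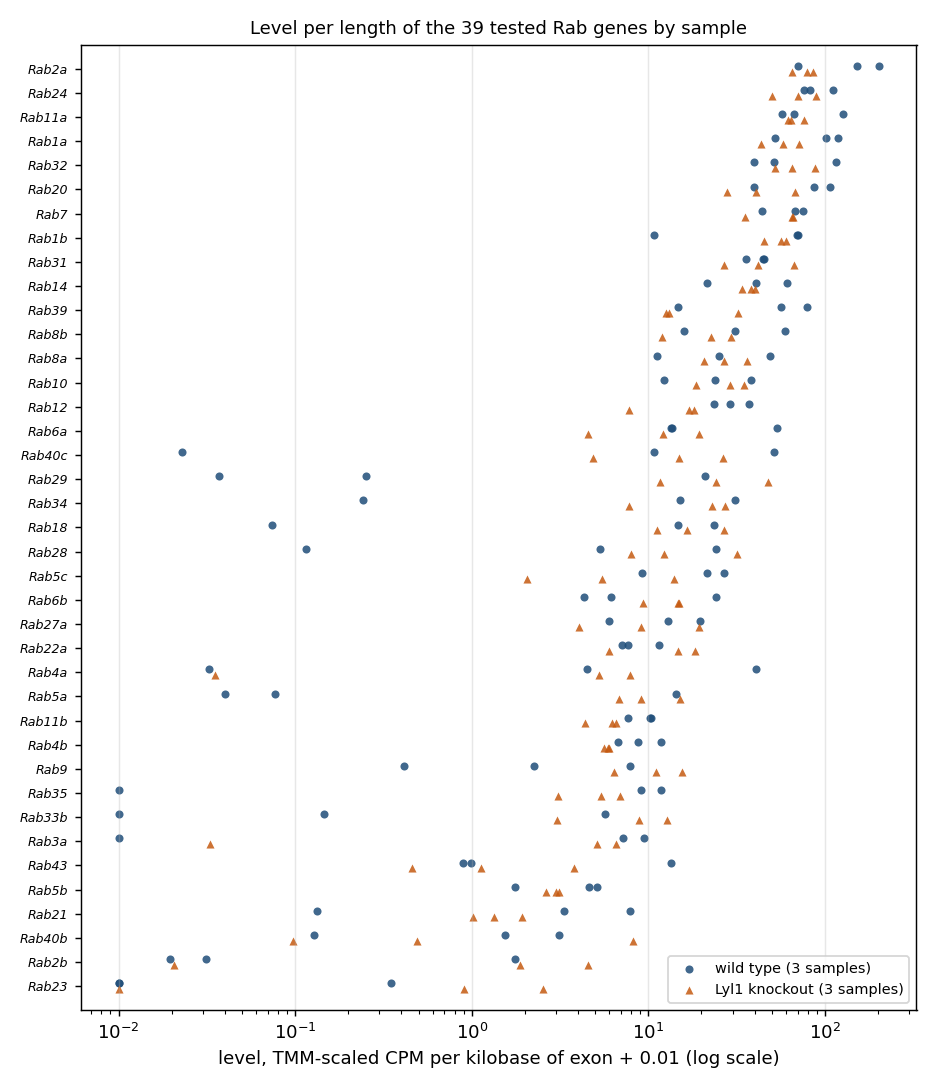
Level of the 39 tested Rab genes in TMM-scaled CPM per kilobase of exon (horizontal log axis, 0.01 added), with a point for each sample, circles for wild type and triangles for Lyl1 knockout. Genes are ordered by their mean, from Rab2a at 109 to Rab23 at 0.629, and the points far to the left are mostly wild-type circles.

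The comparison of 3 knockout with 3 wild-type samples asked whether loss of Lyl1 goes with a change in any Rab. None was called: edgeR's quasi-likelihood test gave 0 of the 39 at an adjusted p under 0.05, as it gave 0 of all 10394 genes tested (0%). At an unadjusted p under 0.05 there were also 0 Rab genes, against 2.84% of all genes tested. DESeq2 on the same genes called 0 after adjustment and had 1 Rab gene at an unadjusted p under 0.05, Rab2a (adjusted p = 0.789), against 6.3% of all genes. limma-voom called 0 and had 3 at an unadjusted p under 0.05, Rab5a, Rab29 and Rab33b, all above 0, which is 7.69% of the tested Rabs against 6.38% of all genes. Without wild-type sample 3 the edgeR count was 6 of 39 (15.4%), with Rab1a, Rab2a and Rab39 below 0 and Rab5a, Rab29 and Rab33b above (smallest adjusted p = 0.392). The count over all genes moved in the same way, from 295 of 10394 to 1158 of 11061 (10.5%).

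Of the 39 fitted log2 fold changes 24 were below 0 and 15 above, 61.5% below against 51.3% of all genes tested. Their median was -0.24, against -0.03 over all genes tested. By mean level, the median of the 15 Rabs at 10 to 50 CPM was -0.44, against 0.04 over all genes there. At 50 to 100 CPM it was -0.14 for 8 Rabs, against -0.16. At 100 to 1000 CPM it was -0.17 for 13 Rabs, against -0.16. For the 3 Rabs at 1 to 10 CPM it was 1.85, against 0.31. Among genes with more than 3 reads in all 6 samples, 64.5% of the 31 Rabs and 57.8% of 6287 genes lay below 0, with medians of -0.24 and -0.15. The median of the tested Rabs ran from -0.32 to -0.06 over the other scalings and was 0.02 with a replicate block, where the median of all genes was 0.18. Xist was above 10 CPM only in knockout samples 1 and 3, so a fit that held it compares knockout sample 2 alone with wild type. In that fit the median of the tested Rabs was -0.31, against -0.26 over all genes, and several members moved by more than 1.5 times. Rab20 went from -0.77 to -0.20, Rab6a from -1.17 to -0.48, Rab33b from 2.08 to 0.64 and Rab9 from 1.65 to 0.87. Away from 0 went Rab1a, from -0.65 to -1.05, Rab11b, from -0.71 to -1.11, Rab2b, from 1.85 to 2.93, and Rab22a, from 0.57 to 1.07. Summed over the family, Rab transcripts were at 4538, 3635 and 3125 CPM in the wild-type samples and 3129, 3293 and 3058 CPM in knockout, and the genotypes overlapped. In bulk RNA, fewer cells of a type and less RNA per cell cannot be told apart.

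All 3 knockout samples lay below all 3 wild-type samples for 3 of the 39 tested Rabs (7.69%), Rab4b, Rab11b and Rab12. This was so for 5.19% of all genes tested. None of the 39 lay above throughout, against 5.97% of all genes. In both directions together the shares were 7.69% and 11.2%. With scaling by upper quartile or by library size the genotypes stayed apart for Rab12 alone (2.56%), against 11% of all genes. These 3 genes had an exact 2-sided permutation p of 0.1, the smallest that 3 against 3 samples can give.

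**Figure D2:**
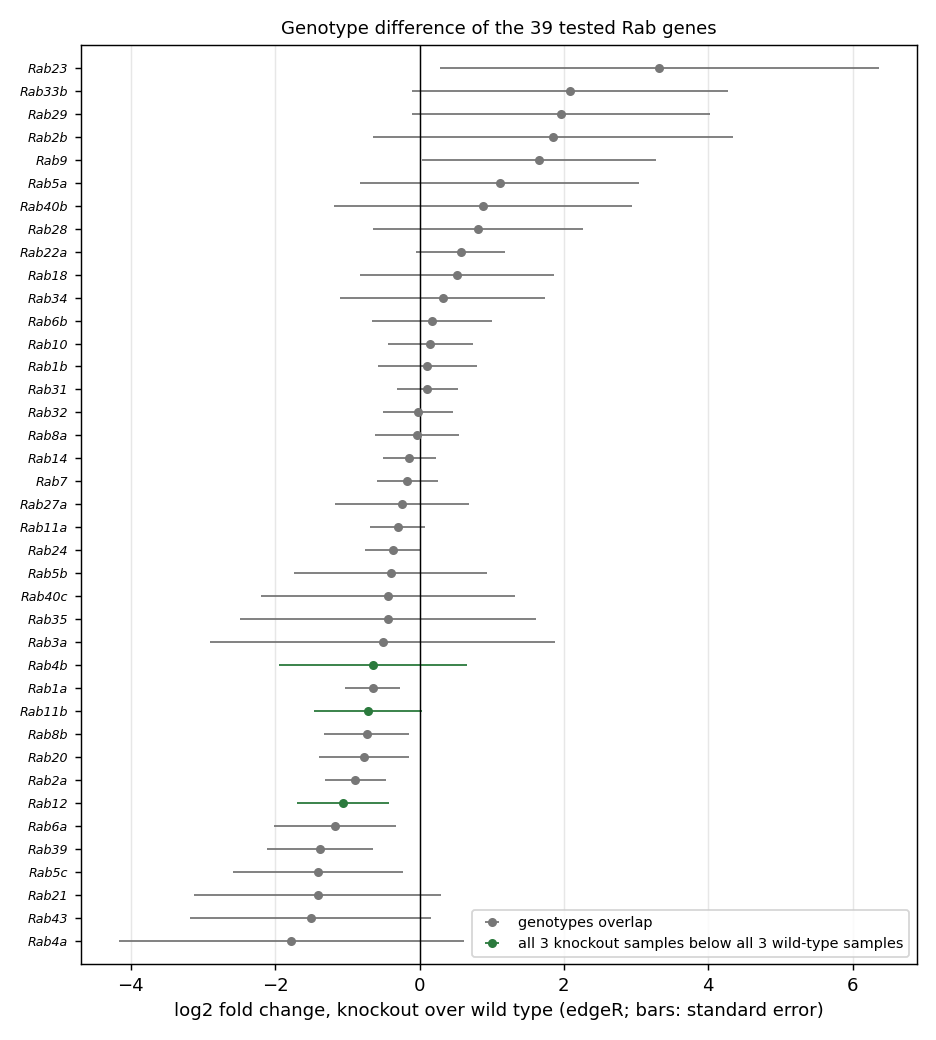
Fitted log2 fold change of each of the 39 tested Rab genes, knockout over wild type (horizontal axis), with bars of 1 standard error of the edgeR fit. The 3 genes whose samples do not overlap, Rab4b, Rab11b and Rab12, are in green, and the widest bars belong to genes with few reads in some samples, such as Rab23 at 3.32 with a standard error of 3.04.

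Among Rabs of ER and Golgi traffic, 9 of 11 were tested, 5 with a positive and 4 with a negative log2 fold change (median 0.11), and 0 were called. Rab2a was at 325, 429 and 150 CPM in the wild-type samples and 139, 182 and 168 CPM in knockout. Wild-type samples 1 and 2 were high and wild-type sample 3 lay within the knockout range. Its log2 fold change was -0.89 (standard error 0.42, unadjusted p = 0.0689, edgeR adjusted p = 0.9999), the smallest unadjusted p of the family. Without wild-type sample 2 it was -0.52. Rab1a, the housekeeping Rab of ER export, showed the same order, with 383, 452 and 197 CPM in the wild-type samples and 221, 166 and 270 CPM in knockout. The fitted log2 fold change was -0.65 (standard error 0.38, edgeR adjusted p = 0.9999) and -0.38 without wild-type sample 2. Its paralogue Rab1b was at 24.3, 159 and 157 CPM in the wild-type samples and 102, 128 and 137 CPM in knockout, with wild-type sample 1 alone low.

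Rab6a, which serves transport at the Golgi, was at 200, 50.7 and 49.8 CPM in the wild-type samples and 16.9, 71.8 and 45 CPM in knockout. Its log2 fold change of -1.17 (standard error 0.85, edgeR adjusted p = 0.9999) came with a high wild-type sample 1 and a low knockout sample 1. It was -0.16 without wild-type sample 1 and -0.78 without knockout sample 1. Mrpl48 overlaps 19% of its exon length on the opposite strand. Rab6b was at 57.9 ± 55 and 65.2 ± 16 CPM in wild type and knockout (SD, n = 3 each). Rab18, which acts on lipid droplets and the ER, had 5 reads in wild-type sample 1 and between 2110 and 4190 in the other samples. Rab33b, a Golgi Rab that binds the autophagy protein Atg16l1, had 0, 12 and 422 reads in the wild-type samples and 1022, 211 and 904 in knockout. Wild-type sample 3 thus lay between the knockout samples and the other wild-type samples were near 0, with a log2 fold change of 2.08 (standard error 2.19, edgeR adjusted p = 0.9999) that was 6.85 without wild-type sample 3.

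Rab2b, the paralogue of Rab2a, had 1, 1 and 152 reads in the wild-type samples and 1, 369 and 225 in knockout, so 1 sample of knockout was as low as wild-type samples 1 and 2. The fit gave a log2 fold change of 1.85 (standard error 2.5, edgeR adjusted p = 0.9999), 7.05 without wild-type sample 3 and 0.68 without knockout sample 2, and 59.3% of its exon length is overlapped on the opposite strand by the gene model Gm43766. Rab43 ran from 2.47 to 74.1 CPM with wild-type sample 2 the highest, and 75.4% of its exon length is shared with Gm45140 on the same strand. Rab30 had at most 6 reads.

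All 8 Rabs of uptake, early endosome and phagosome were detected in every sample, 4 with a positive and 4 with a negative log2 fold change (median -0.15), and 0 were called. The Rab5 trio, which drives fusion of early endosomes, was uneven between samples. Rab5a (GRCm38 chromosome 17, 53479234 to 53507680, plus strand) had 4, 4 and 1587 reads in the wild-type samples and 1090, 1572 and 1039 in knockout. Wild-type sample 3 was thus the highest in reads and the other wild-type samples were nearly empty, so the genotypes overlapped. The log2 fold change was 1.11 (standard error 1.93, edgeR adjusted p = 0.9999) and 7.74 without wild-type sample 3 (adjusted p = 0.392). In wild-type samples 1 and 2 the paralogues, whose sequences are given above, were read well, Rab5b at 21.5 and 19.4 CPM and Rab5c at 58.8 and 47.1 CPM. In wild-type sample 3 Rab5b was at 7.34 and Rab5c at 20.3 CPM. In knockout Rab5b was at 11, 13 and 12.6 CPM and Rab5c at 4.49, 30.8 and 12 CPM. Rab5a and Rab5c each had a range of more than 10-fold over the 6 samples.

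Rab20, a Rab of maturing phagosomes, was at 120, 148 and 55.4 CPM in the wild-type samples and 56.9, 93.7 and 38.9 CPM in knockout. Wild-type sample 3 again lay among the knockout samples, and the log2 fold change was -0.77 (standard error 0.62, edgeR adjusted p = 0.9999), -0.45 without wild-type sample 2. Rab22a, which acts on early and recycling endosomes, was at 63.1 ± 17.2 and 93.9 ± 45.8 CPM in wild type and knockout, with a log2 fold change of 0.57 (standard error 0.62, edgeR adjusted p = 0.9999) that was 0.26 without knockout sample 2. Rab31 was at 160 ± 20.4 and 172 ± 77.4 CPM (SD, n = 3 each). Rab34, linked to the placement of lysosomes and to macropinosomes, had 14 reads in wild-type sample 2 and 418 to 1569 in the others. Rab21, an endocytic Rab of integrins, had 7 reads in wild-type sample 1 and 115 to 994 in the others.

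Of 8 Rabs of late endosome, lysosome and autophagy 5 were tested, and 4 had a negative and 1 a positive log2 fold change (median -0.37), with 0 called. Their summed level was 681, 579 and 507 CPM in the wild-type samples and 359, 379 and 476 CPM in knockout, the single role sum in which the genotypes did not overlap among the 7 roles with a tested member. This was not tested, and 3 against 3 samples cannot give an exact permutation p below 0.1. The roles were also set with earlier results of these data known. The sums overlapped for ER and Golgi traffic, at 1059, 1348 and 719 against 785, 759 and 816 CPM. They also overlapped for uptake, at 467, 511 and 432 against 352, 679 and 363 CPM, and for lysosome-related organelles, at 348, 143 and 174 against 350, 223 and 154 CPM. Rab12, which acts in degradation of the transferrin receptor and in autophagy (GRCm38 chromosome 17, 66494512 to 66519729, minus strand), was at 112, 71.4 and 87.8 CPM in wild type. It was at 23.6, 55.1 and 51.3 CPM in knockout. The log2 fold change was -1.06 (standard error 0.64, edgeR adjusted p = 0.9999) and lay between -1.25 and -0.71 in 16 alternatives. Rab39, a Rab of phagosomes and autophagy, was at 168, 234 and 43.8 CPM in the wild-type samples and 37.4, 38.9 and 95.4 CPM in knockout, with wild-type samples 1 and 2 high. The fit gave a log2 fold change of -1.38 (standard error 0.73, edgeR adjusted p = 0.9999), -0.86 without wild-type sample 2.

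Rab7, which is needed for fusion with lysosomes, was at 163 ± 42.5 and 144 ± 45.7 CPM in wild type and knockout (SD, n = 3 each), and its distant paralogue Rab7b had 1 read in each of 2 samples. Rab24 was at 225, 154 and 165 CPM in the wild-type samples and 179, 101 and 141 CPM in knockout, a log2 fold change of -0.37 (standard error 0.38, edgeR adjusted p = 0.9999). Rab9, which returns cargo from late endosomes to the Golgi, lay the other way, with 8, 99 and 288 reads in the wild-type samples and 618, 220 and 552 in knockout. Wild-type sample 3 was above knockout sample 2, and the log2 fold change was 1.65 (standard error 1.62, edgeR adjusted p = 0.9999), 3.05 without wild-type sample 3. Rab9b and Rab39b were without reads but for 1 read of Rab39b.

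**Figure D3:**
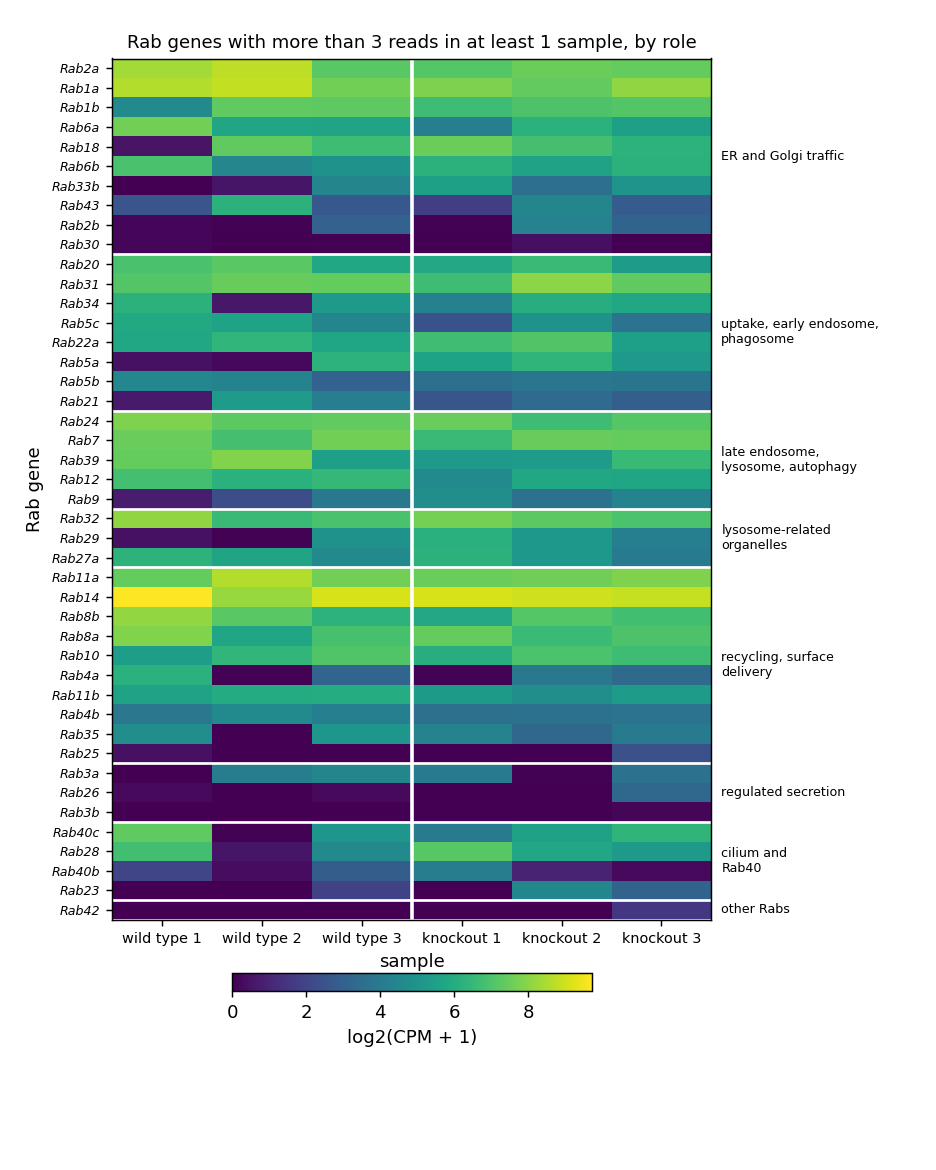
Colour map of log2(CPM + 1) for the 44 Rab genes with more than 3 reads in at least 1 sample, in rows by role, over 3 wild-type and 3 Lyl1 knockout samples in columns. Dark cells within otherwise bright rows, such as Rab18 in wild-type sample 1 and Rab40c in wild-type sample 2, are genes nearly unread in a sample, and Rab14 is bright throughout.

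Of 6 Rabs of lysosome-related organelles 3 were tested, and 0 were called. Rab32, a Rab of melanosome and lysosome-related organelle formation, was at 272, 93 and 120 CPM in the wild-type samples and 205, 152 and 122 CPM in knockout, and its log2 fold change was -0.02. Rab38, its paralogue, had 0 reads in all 6 samples. Rab27a, which docks secretory lysosomes and exosome-bearing endosomes, was at 49.6 ± 26.2 and 41.9 ± 30.2 CPM (SD, n = 3 each), while Rab27b had 1 read in all. Microglia thus carried reads of Rab32 and Rab27a with at most 1 read of the partner paralogue. Rab29, which recruits the kinase Lrrk2 to membranes in cell lines, had 4, 1 and 648 reads in the wild-type samples and 1580, 694 and 488 in knockout. As for Rab5a, wild-type samples 1 and 2 were nearly empty and wild-type sample 3 lay within the knockout range. The log2 fold change of Rab29 was 1.96 (standard error 2.07, edgeR adjusted p = 0.9999) and 7.73 without wild-type sample 3.

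Of 13 Rabs of recycling and delivery to the surface 9 were tested, 8 with a negative and 1 with a positive log2 fold change (median -0.44), and 0 were called. Their summed level was 1712, 1037 and 1205 CPM in the wild-type samples and 1094, 1130 and 1101 CPM in knockout, and the genotypes overlapped. Rab11b (GRCm38 chromosome 17, 33742484 to 33760530, minus strand) was at 46.8, 62.2 and 63.8 CPM in the wild-type samples and 38.2, 26.7 and 40.4 CPM in knockout. The groups did not overlap, with a log2 fold change of -0.71 (standard error 0.75, edgeR adjusted p = 0.9999). Its more abundant paralogue Rab11a was at 170, 378 and 200 CPM in the wild-type samples and 185, 193 and 228 CPM in knockout, with wild-type sample 2 alone high. Per kilobase the pair stood at 75.4 for Rab11a and 7.56 for Rab11b as means of all samples.

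Rab4b, a Rab of fast recycling from early endosomes (GRCm38 chromosome 7, 27168424 to 27178896, minus strand), was at 13.2, 23.1 and 17.3 CPM in the wild-type samples and 11.1, 11.6 and 11.8 CPM in knockout. The gap between the groups was narrow, and the log2 fold change was -0.64 (standard error 1.30, edgeR adjusted p = 0.9999) and -0.39 without wild-type sample 2. The gene model Gm21983, listed at 0 reads, covers 65% of the exon length of Rab4b on the same strand, so the assignment of reads between them is uncertain. Rab4a had 1 read in each of wild-type sample 2 and knockout sample 1 and 811 reads in wild-type sample 1. Rab8a, which carries cargo from the Golgi to the surface, was at 133 ± 89.3 and 131 ± 37 CPM, and Rab8b at 168 ± 104 and 101 ± 41.9 CPM (SD, n = 3 each). Rab10, which brings receptors such as TLR4 to the surface in macrophages, was at 86.9 ± 45.7 and 96.3 ± 28.7 CPM. Rab35, a Rab of fast recycling, had 0 reads in wild-type sample 2 and 171 to 701 in the others.

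Rabs typical of secretory and epithelial cells were sparse. Rab3a, which marks synaptic vesicles in neurons, was the 1 tested member of 5 in regulated secretion, with 0, 404 and 440 reads in the wild-type samples and 331, 1 and 329 in knockout. It was thus read well in 4 samples and missing in 1 of each genotype. Of 10 neuronal markers 0 were tested, their summed level was 0.0477 to 0.882 CPM in the wild-type samples and 0.313 to 7.84 CPM in knockout, and Snap25, Gad1 and Nefl had 0 reads throughout. Rbfox3, the most abundant of them, had 158 and 7 reads in knockout samples 1 and 2 and 0 in the other samples. Knockout sample 3 alone held most reads of Rab25, an epithelial recycling Rab, with 123, of Rab26, linked to secretory granules, with 247, and of Rab42, with 54. Elsewhere these 3 genes had at most 4 reads. Rab3b had 4 reads in the same sample and 0 in the others.

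The 4 Rabs linked to the cilium or of the Rab40 family, whose proteins carry a ubiquitin ligase box, were tested, with 3 positive and 1 negative log2 fold changes and 0 called. Rab23, which restrains Hedgehog signalling, had 0, 0 and 59 reads in the wild-type samples and 0, 414 and 213 in knockout. Its log2 fold change of 3.32 (standard error 3.04, edgeR adjusted p = 0.9999) was the highest of the family and rests on 3 samples with reads. It was 10.68 without wild-type sample 3 and 1.98 without knockout sample 2. Rab40c had 1 read in wild-type sample 2 and 341 to 2341 in the others, and Rab28 had 12 in that sample and 504 to 3264 in the others. Rab40b ran from 5 to 375 reads with knockout sample 1 the highest.

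The spread between samples was wide for many members. Of the 31 Rabs detected in every sample, the highest level was under 3-fold the lowest for 10, over 10-fold for 10 and over 100-fold for 4. Those 4 were Rab5a at 503-fold, Rab18 at 419-fold, Rab28 at 301-fold and Rab34 at 133-fold. In each of them the low values belonged to wild-type sample 1, wild-type sample 2 or both. Under 1 CPM there were 9 tested Rabs in wild-type sample 1, 11 in wild-type sample 2 and 0 in wild-type sample 3, against 3, 2 and 1 in knockout samples 1 to 3. Among the 13 Rabs with a mean of 100 to 1000 CPM the coefficient of variation had a median of 48.4% among wild-type and 27.9% among knockout samples, against 38.9% and 25.9% for the 1650 genes of that range. Among the 15 Rabs at 10 to 50 CPM it was 99.6% and 53%, against 98.4% and 67.8%.

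The same samples were sparse over all genes. At 3 reads or fewer were 10.3%, 15.4% and 0% of tested Rabs in wild-type samples 1 to 3, against 20.6%, 21.7% and 2.34% of all tested genes. In knockout samples 1 to 3 it was 7.69%, 2.56% and 0%, against 11.6%, 10.8% and 1.54%. The part of this sparseness in the Rab differences was not tested beyond a fit that held the number of genes detected, in which the median of the tested Rabs was -0.10 and that of all genes 0.08. In that fit Rab20 went from -0.77 to -0.31, Rab2a from -0.89 to -0.50 and Rab1a from -0.65 to -0.43. Away from 0 went Rab29, from 1.96 to 4.34, Rab23, from 3.32 to 5.68, and Rab33b, from 2.08 to 3.70. Rab12 moved little, from -1.06 to -1.13.

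**Figure D4:**
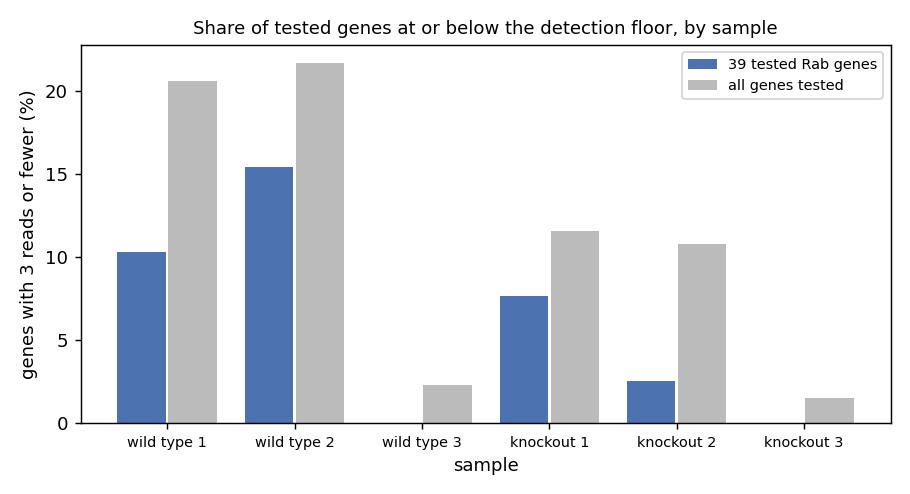
Percent of genes with 3 reads or fewer in each of the 6 samples, for the 39 tested Rab genes (blue bars) and all 10394 tested genes (grey bars), from an axis that starts at 0. Wild-type samples 1 and 2 have the tallest bars of both kinds, and wild-type sample 3 and knockout sample 3 have 0% of Rabs there.

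Genes that load, unload and read Rabs were counted beside the family. Of 8 genes for escort, prenylation and GDI all were tested, 6 above and 2 below 0 (median 0.54). Of 46 exchange factor genes 42 were tested, 25 above and 17 below (median 0.27). Of 34 genes for GTPase activating proteins 28 were tested, 19 above and 9 below (median 0.42), and of 39 effector genes with Lrrk2 28 were tested, 20 above and 8 below (median 0.42). The median over all genes tested was -0.03. By mean level it was 0.31 at 1 to 10 CPM, 0.04 at 10 to 50 CPM and -0.16 at 50 to 100 CPM. In all 4 groups edgeR called 0, and 2 of 106 genes had an unadjusted p under 0.05, 1.89% against 2.84% of all genes tested. The genotypes did not overlap for 14, of which 12 were higher in knockout (11.3%, against 5.97% of all genes) and 2 lower (1.89%, against 5.19%). Several of the 12 had few reads in wild-type samples 1 and 2, such as Chm with 4 and 0, while Trappc13 had 130 and 306. Lrrk2, the kinase that phosphorylates several Rabs, had 0 reads in all 6 samples, as had Rab11fip4, Sytl3 and Sgsm1.

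The first of those 2 genes was Trappc13, of the TRAPP tether and exchange complex, at 11.5, 12.2 and 28.8 CPM in the wild-type samples and 118, 106 and 56.5 CPM in knockout. The genotypes did not overlap, with a log2 fold change of 2.42 (standard error 0.79, unadjusted p = 0.0165, edgeR adjusted p = 0.9999). The other was Sgsm2, a Rab GTPase activating protein, which had 978, 382 and 369 reads in the wild-type samples and 0, 17 and 18 in knockout. Its log2 fold change was -6.30 (standard error 2.16, unadjusted p = 0.0202, edgeR adjusted p = 0.9999), and DESeq2 called it, at -6.45 (adjusted p = 0.0115). Of the other TRAPP genes, Trappc4 was at 116 ± 21.9 and 63.7 ± 6.61 CPM and Trappc9 at 15.9 ± 17.2 and 89.7 ± 24.2 CPM in wild type and knockout (SD, n = 3 each). The genotypes did not overlap for either gene, lower in knockout for Trappc4 and higher for Trappc9.

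Rab3gap1 and Rab3gap2, the subunits of a complex that acts on Rab3 and, as an exchange factor, on Rab18, had log2 fold changes of 2.18 and 2.32 (standard errors 1.17 and 1.19, edgeR adjusted p = 0.9999 for both). Rabggta and Rabggtb, the subunits of geranylgeranyl transferase, had 0.92 and 2.55 (standard errors 0.78 and 1.68, edgeR adjusted p = 0.9999 for both). Rabac1, a Rab acceptor of the Golgi, was at 248 ± 46.2 and 192 ± 28.8 CPM. Among effectors, Rab11fip3, which links Rab11 to dynein, had 3, 1 and 246 reads in the wild-type samples and 979, 1991 and 419 in knockout. Mical1, an actin-oxidizing effector, had 2, 2 and 179 in wild type and 233, 901 and 1169 in knockout, again with wild-type samples 1 and 2 nearly empty. Vps39, of the tether that acts with Rab7 at lysosomes, was at 95.5 ± 48.8 and 51.6 ± 26.4 CPM.

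Markers of other cells were uneven between samples. Of the astrocyte list only Slc1a3 had more than 1.41 CPM in any sample, at 170 to 408 CPM, with Gfap, Aldh1l1 and Aldoc at 0. The summed oligodendrocyte list was at 379, 47.4 and 186 CPM in the wild-type samples and 109, 215 and 181 CPM in knockout. It was led on average by Cnp, at 6.55 to 153 CPM, with Mobp and Cldn11 at 0. Pecam1, which leads the endothelial list, was at 26.1 to 154 CPM with Cldn5 and Ly6c1 at 0. Globin Hbb-bs reached 127 CPM in knockout sample 1 and 38.2 CPM in knockout sample 2, against 0.705 CPM or less elsewhere. Mrc1 of border macrophages was at 95.4 CPM in wild-type sample 1 and at 0.152 to 20.1 CPM in the others. The list that holds Mrc1 is of border macrophages, monocytes and neutrophils. Ccr2 of that list was at 0.0882 CPM or less in wild type. In knockout samples 1 to 3 Ccr2 was at 6.82, 0.152 and 3.23 CPM. S100a9, also of that list, was highest in wild-type sample 2, at 3.26 CPM. The list of T, B and NK cells summed to 1.38 CPM or less, led by Cd79a with 29 reads in wild-type sample 3 and 0 elsewhere. The part of these markers in the Rab values was not tested.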

How the data were processed

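Per the labels' protocols, cDNA from sorted microglia was amplified with a SMARTer Ultra Low kit, which does not mark strand, made into Nextera XT libraries and read as single 50-base reads. The authors deposited raw read counts per gene symbol. Per the submitters' processing notes the build was GRCm38 and the tools, in no stated order, were limma 3.28.21, featureCounts 1.5.1, Subread, STAR 2.5.2b and CASAVA 1.8.2. Not given in the sources used here are the annotation and the strand and multi-mapping settings. No molecular identifiers were counted, so reads are not independent molecules. Spike-in entries (0.000517% of counts or less) were left out.

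In R 4.3.3, edgeR 4.0.16 kept genes by filterByExpr (minimum count 10, minimum total 15), scaled by TMM and tested knockout against wild type with the quasi-likelihood F test, 2-sided, over all 10394 genes, adjusted by Benjamini-Hochberg with calls at an adjusted p under 0.05. Standard errors were taken from the log2 fold change and its F value. The scripts were tested on simulated counts with far less spread between samples than these data, so that test does not gauge what could be called here. DESeq2 1.42.0 and limma 3.58.1 (voom) were alternatives, as were other scalings and filters, a replicate block, covariates and leaving out each sample. Exon lengths, overlaps and sequences are from GENCODE M21 on GRCm38. Members, gene lists and roles were chosen with earlier results of these data known. Described in full were the 10 members highest per kilobase, the 6 with the smallest p in each direction, every member whose genotypes do not overlap, paralogue pairs, and up to 3 partners per group by p. Levels of markers are given for P2ry12, Tmem119 and Cx3cr1 of microglia and the most abundant of each other list. Aif1, Fcrls, Ccr2 and S100a9 were added after their values were seen.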

Additional observations from a re-analysis of the deposited data

How the results depend on the processing

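Across the alternatives edgeR, DESeq2 and limma-voom called 0 Rab genes after adjustment. Among all genes, edgeR without the filter called 8 and DESeq2 called 52, 1 of them a Rab partner (Sgsm2). The number of Rabs at an unadjusted p under 0.05 was 1 without the filter (Rab42, which has reads in a single sample), 1 with DESeq2 and 3 with limma-voom, and ran from 0 to 6 when a sample was left out. The 6, without wild-type sample 3, are 15.4% of tested Rabs against 10.5% of all genes, and the other samples gave 0 Rabs against 2.37% to 3.1% of all genes. The number of Rabs whose genotypes did not overlap was 1 when scaled by upper quartile and 1 by library size alone. It ran from 6 to 14 when a sample was left out (14 without wild-type sample 3). The shares were 15.4% to 35.9% of the tested Rabs against 19% to 30.2% of all genes, the highest of both without wild-type sample 3. The median log2 fold change of the tested Rabs was 0.02 with the replicate block. Same-numbered samples of the genotypes had correlations of 0.0144, -0.00288 and 0.0327 in their deviations over genes, and not every sample correlated best with its own number. Correlations this near 0 cannot settle whether the numbers pair the samples. The cause of the change under the block was not tested. Upper-quartile scaling moved the median of all genes from -0.03 to 0.09, and the Rab median minus that of all genes stayed between -0.36 and -0.03 in every alternative run. These runs reuse the same samples, so a kept gap is not separate support. In the main fit the gap was not seen among genes of like level above 50 CPM. The Rab medians there were -0.14 at 50 to 100 CPM and -0.17 at 100 to 1000 CPM, against -0.16 for all genes in both ranges. The 14 Rabs named by p within each direction or for lack of overlap kept their sign in 16 of 16 alternatives, but not their size. They were picked by values of the same samples that the alternatives reuse, so a kept sign is not separate support. Rab6a ran from -1.67 to -0.16, Rab20 from -1.15 to -0.20, Rab23 from 1.98 to 10.68, Rab29 from 1.33 to 7.73, Rab2b from 0.68 to 7.05 and Rab33b from 0.64 to 6.85. The common biological coefficient of variation of 1.27 and the 3 samples per genotype limit what could be called, and genes of few reads most.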
